A study of Mus musculus with 20 samples.

Results

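The voltage-gated sodium channel genes of the mouse brain were examined in whole-brain RNA-Seq data of Katnal2-KO and WT mice. The 7 genes were chosen by name and were found through their Ensembl identifiers among the 19463 genes of the table. All 7 were above the minimum mean used for testing in every comparison. They comprise the pore-forming alpha subunit genes Scn1a, Scn2a, Scn3a and Scn8a and the auxiliary beta subunit genes Scn2b, Scn3b and Scn4b. All samples came from male mice of strain C57BL/6J, and the 4 groups of 5 mice each were WT mice at P21, Katnal2-KO mice at P21, WT mice at P70 and Katnal2-KO mice at P70 (3 and 10 weeks of age), 20 mice in all. Katnal2 encodes a katanin-like protein that binds microtubules. The KO allele was derived from ES cells carrying Katnal2 tm1a(EUCOMM)Wtsi. Mating with Protamine-Flp mice gave a floxed allele, and fertilized eggs were then treated with HTNC, a Cre recombinase that enters cells. The line was backcrossed to C57BL/6J for more than 5 generations, and KO mice of both ages carry the same allele. Each sample was the whole brain of a single mouse, in which fewer cells of a type and less RNA per cell cannot be told apart.

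Each sodium channel consists of a large alpha subunit, which forms the pore, senses the voltage and inactivates, and of smaller beta subunits, which cross the membrane a single time and carry an immunoglobulin-like domain. Scn1a is known mainly from inhibitory interneurons, Scn2a from excitatory neurons and the axon initial segment of young neurons, Scn8a from the mature initial segment and nodes of Ranvier, and Scn3a from the embryonic and newborn brain. The products of Scn2b and Scn4b are bound to the alpha subunit by a disulfide bond, whereas that of Scn3b is not, and that of Scn4b is known for resurgent current in cerebellar Purkinje cells and for its abundance in the striatum.

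The alpha subunits are close relatives, which matters for how short reads are assigned to them. Of all distinct 31-base words of their transcripts in the GENCODE M21 annotation, 9.46% in Scn3a, 8.94% in Scn2a, 7.26% in Scn1a and 0.45% in Scn8a also occurred in another sodium channel gene, against 0 in the 3 beta subunit genes. A small part of the reads of Scn1a, Scn2a and Scn3a could therefore have been divided among them by the authors' quantification, and ratios between these 3 genes carry that uncertainty.

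Scn3a, Scn2a and Scn1a lie in this order on chromosome 2, with 53143 bases between the first pair and 503330 between the second, and Scn8a lies on chromosome 15 (chr15:100869858-101045938). The 3 beta subunit genes lie on chromosome 9, where Scn2b (chr9:45117782-45130070) and Scn4b (chr9:45138395-45154152) are neighbours on the plus strand, 8324 bases apart. These are the members with higher values at P70, described below, and their promoters are shown for that reason (RefSeq, GRCm38.p6; 250 bases before to 50 bases after the start, plus strand, CG dinucleotides in capitals; Scn2b chr9:45117626-45117925, Scn4b chr9:45138374-45138673).
Scn2b: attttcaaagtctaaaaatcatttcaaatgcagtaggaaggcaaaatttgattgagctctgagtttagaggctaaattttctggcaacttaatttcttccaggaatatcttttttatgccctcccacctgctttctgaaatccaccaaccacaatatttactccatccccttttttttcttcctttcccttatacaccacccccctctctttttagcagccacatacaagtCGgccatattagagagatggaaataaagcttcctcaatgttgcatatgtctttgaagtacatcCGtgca
Scn4b: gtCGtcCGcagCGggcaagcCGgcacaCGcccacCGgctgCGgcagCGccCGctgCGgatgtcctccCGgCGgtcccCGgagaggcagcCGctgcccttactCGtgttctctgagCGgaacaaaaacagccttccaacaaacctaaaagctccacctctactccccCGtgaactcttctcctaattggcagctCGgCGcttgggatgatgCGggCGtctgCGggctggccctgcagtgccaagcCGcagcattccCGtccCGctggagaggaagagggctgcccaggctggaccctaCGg
The RefSeq starts used for these windows lie inside the genes as given above. The Scn2b window therefore runs into its gene from base 45117782 on, and the Scn4b window from base 45138395 on. Most of the Scn4b window thus lies within the gene. The neighbours differed in base composition. The Scn2b promoter held 38.3% G and C and 2 CG dinucleotides, and the Scn4b promoter 66.3% and 26, against medians of 52.7% and 7 over 32851 promoters of the same length. On either strand, the Scn2b promoter held 3 matches of the E-box CANNTG (present in 72.3% of all promoters) and none of TATAAA (13.6%), GGGCGG (35.7%), CCAAT (37.4%) or TGACGT (7.5%). The Scn4b promoter held 1 match of CCAAT and none of the others.

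The targeted gene was examined first. Normalized counts of Katnal2 were 113, 100, 115, 99.3 and 108 in the WT mice at P21 and 96, 94, 78.1, 81 and 95.9 in the Katnal2-KO mice, in the order of replicates 1 to 5. All 5 KO mice were below all 5 WT mice, by 17.1% on average (log2 difference -0.27, SE 0.10; limma adjusted p = 1.00; exact two-sided permutation p = 0.00794, the smallest value possible with groups of this size). Groups without overlap were found for 0.46% of all genes at P21 and 0.193% at P70. At P70 the values were 104, 95.1, 100, 100 and 125 in KO mice and 110, 141, 101, 125 and 132 in WT mice. These groups overlapped (log2 difference -0.21, SE 0.13; exact permutation p = 0.0794, 0.0317 without KO replicate 5 and 0.0476 without WT replicate 3). The study describes the KO allele as a deletion of exon 3, and a value summed over the whole gene includes the remaining exons, so it checks the labels only in part. The deposited values were already scaled, with sums of 27310523 to 28423042 per mouse. The depth judged from the spacing of low values was 26200000 to 36400000 reads at P21 and 23400000 to 28300000 at P70. The labels give no library date, so age, depth and any batch that goes with age cannot be told apart. Replicate 5 of both P70 groups stood apart from the other mice over the whole transcriptome, with long genes low and genes rich in G and C high, and values with and without these mice are given where they matter.

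Per kilobase of merged exon, Scn2b had the highest level of the 7 genes and Scn3a the lowest in all 4 groups. In WT mice at P21, Scn2b reached 1589 ± 75.6 normalized counts per kilobase (SD, n = 5 mice), followed by Scn4b with 1055 ± 105, Scn2a with 780 ± 77.5, Scn8a with 703.7 ± 96.1, Scn3b with 588.7 ± 29.8, Scn1a with 506 ± 41.1 and Scn3a with 123.2 ± 18.6. The same order of means was found in the other 3 groups. The values of Scn2b and Scn4b did not overlap within any group, nor did those of Scn4b and Scn2a, or of Scn1a and Scn3a. Scn2a and Scn8a, Scn8a and Scn3b, and Scn3b and Scn1a were neighbours whose values overlapped between mice in every group. Within single mice, the first gene of each pair was above the second in at least 4 of the 5 mice of every group. The order also depended on the length used. With the longest coding transcript in place of all exons, Scn2a (1111 ± 110) was above Scn4b (1055 ± 105) in WT mice at P21.

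As shares of the summed alpha level per kilobase, Scn2a held 36.3% ± 1.68 (SD, n = 20 mice), Scn8a 34.2% ± 2.36, Scn1a 24.1% ± 0.797 and Scn3a 5.46% ± 0.582. The ranges of these shares overlapped between the 4 groups. The highest Scn8a shares were those of the replicate 5 mice at P70. Scn8a made up 41.8% in the KO mouse and 39.4% in the WT mouse, against 31.2% to 34.3% in the other 18 mice. Among the beta subunits, Scn2b held 48.8% ± 1.61, Scn4b 34.8% ± 2.46 and Scn3b 16.4% ± 1.71. The share of Scn3b was 18.3% ± 1.33 (SD, n = 5 mice) in WT mice at P21 and 15.2% ± 0.927 at P70, with no overlap (16.7% to 20.2% against 14.1% to 16.4%). In KO mice it was 17.2% ± 0.688 at P21 and 15.1% ± 1.25 at P70, and there the ranges overlapped (16.3% to 18.1% against 14% to 16.7%). A share also falls when the other genes of the sum rise. Scn3b itself did not pass between the ages, with a log2 fold change of -0.06 in WT mice (limma adjusted p = 0.628) and -0.07 in KO mice (0.521).

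**Figure D1:**
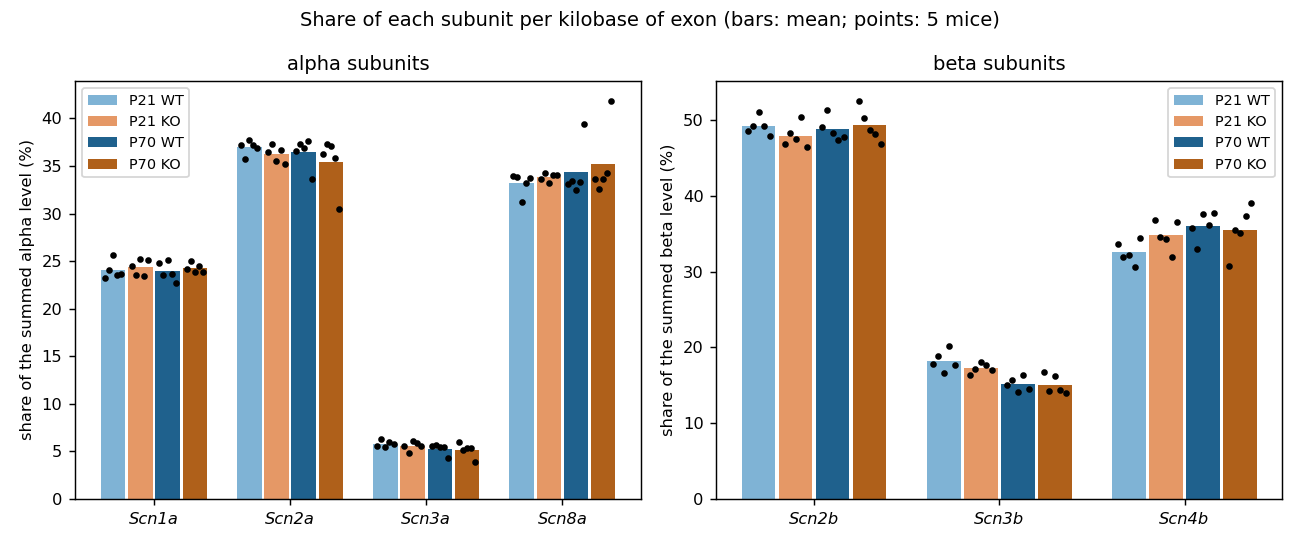
Share of each subunit (vertical axis, percent of the summed level per kilobase of exon) among the 4 alpha subunits (left) and the 3 beta subunits (right), with bars for the mean of each group and points for its 5 mice. Scn2a and Scn8a head the alpha subunits in every group, Scn3a stays between 3.84% and 6.26%, and the Scn8a points at 39.4% and 41.8% are the P70 replicate 5 mice.

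The members with the clearest change between P21 and P70 were the beta subunit genes Scn4b and Scn2b in WT mice. Normalized counts of Scn4b were 5584, 5022, 5176, 4563 and 5929 in WT mice at P21 and 6800, 5993, 6956, 6818 and 6993 at P70. Every WT mouse at P70 was above every WT mouse at P21, and the lowest P70 mouse (replicate 2) was close to the highest P21 mouse (replicate 5). Scn4b rose 1.28-fold (log2 fold change 0.36, SE 0.08, 95% interval 0.19 to 0.52; limma adjusted p = 0.0109, n = 5 against 5 mice). For Scn2b the values were 7526, 7236, 7651, 6859 and 7711 at P21 and 8710, 8722, 8342, 8343 and 8292 at P70. These groups did not overlap either, and the spread between mice was small (coefficient of variation 4.76% and 2.53%). Scn2b rose 1.15-fold (log2 fold change 0.20, SE 0.05, 95% interval 0.08 to 0.32; limma adjusted p = 0.037). Scn3b, the remaining beta subunit, ranged from 2935 to 3347 at P21 and from 2857 to 3377 at P70 (log2 fold change -0.06, SE 0.06, 95% interval -0.20 to 0.08; adjusted p = 0.628).

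In this comparison 2 of the 7 members passed the test, both higher, where 9.32% of the 17630 genes tested passed, 4.62% as higher and 4.7% as lower. The same 2 were the only members at an unadjusted p under 0.05, which every gene that passed also has, beside 24.5% of genes. Both had groups that did not overlap, as did 10.8% of genes. The median log2 fold change was -0.03 over the 7 members and 0.00 over all genes. Scn4b passed under each of the 16 other settings, with adjusted p from 0.00764 to 0.0345. The call of Scn2b was less stable, although its log2 fold change stayed between 0.16 and 0.21 in all 16. It was no longer called with quantile normalization (adjusted p = 0.0976), without the intensity trend (0.069) or with the replicate number as a block (0.105), nor in 8 of the 10 fits that left out a mouse, where adjusted p ranged from 0.00942 to 0.114. The 2 fits with a call were those without replicate 3 at P21 and without replicate 5 at P70.

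**Figure D2:**
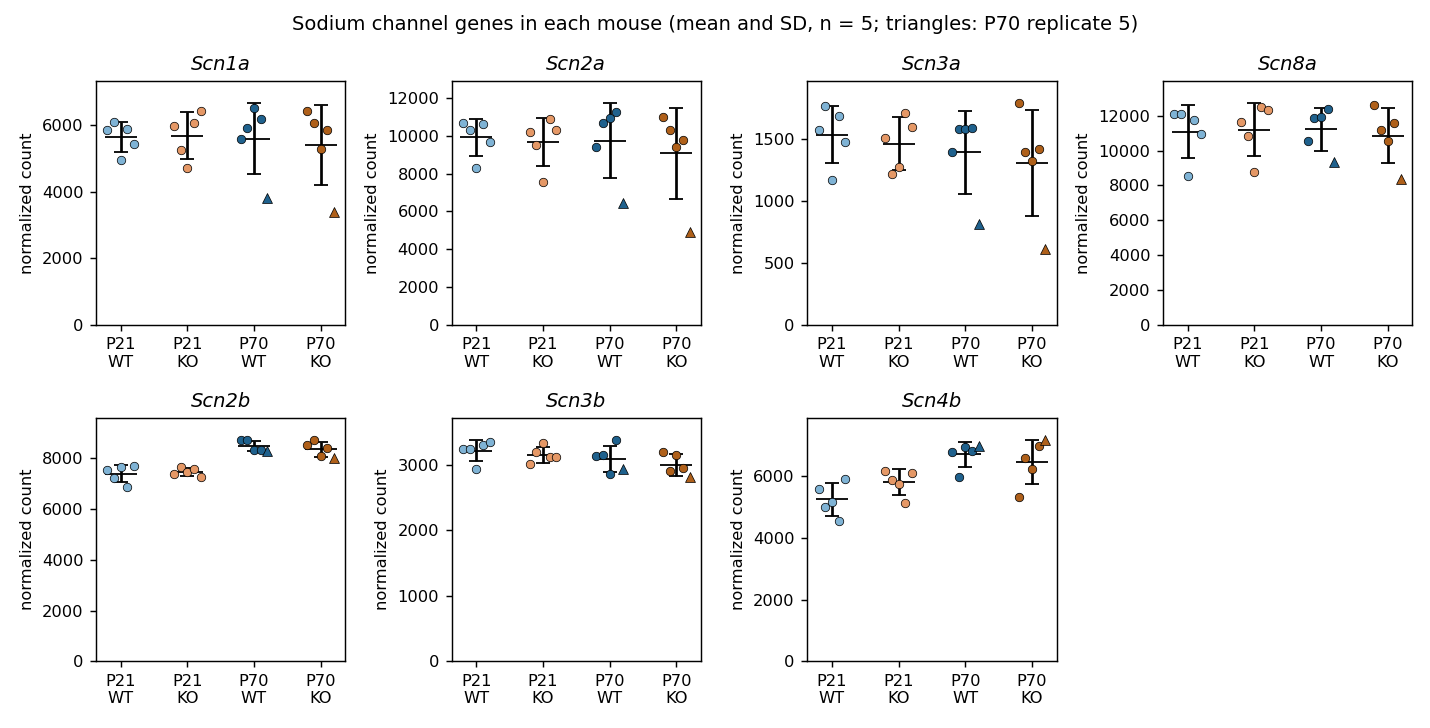
Normalized counts (vertical axis, from 0) of the 7 members in each mouse of the 4 groups, with the mean and SD (n = 5 mice) and triangles for the P70 replicate 5 mice. Scn2b and Scn4b lie higher at P70 than at P21 in WT mice without overlap, whereas the triangles lie below the other P70 mice of their group for the 4 alpha subunits.

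In Katnal2-KO mice none of the 7 members passed the test between the ages, where 8.32% of 17641 genes did, 3.78% as higher and 4.53% as lower. At an unadjusted p under 0.05 there was 1 member, Scn2b, and 22.7% of genes. Scn2b had 7362, 7653, 7451, 7588 and 7275 normalized counts at P21 and 8540, 8720, 8083, 8413 and 8024 at P70. All KO mice at P70 were above all at P21, as in WT mice (10.9% of genes did not overlap), with a log2 fold change of 0.16 (SE 0.05, 95% interval 0.05 to 0.27; limma adjusted p = 0.0731; unadjusted p = 0.00783). It passed without replicate 5 of the P70 KO mice (adjusted p = 0.00561) and with a trend on exon length and GC content removed from each mouse (0.019). For Scn4b the values were 6180, 5872, 5762, 5139 and 6121 at P21 and 5343, 6594, 6231, 6975 and 7166 at P70. Here 4 of the 5 older mice were above all younger ones, and replicate 1 at P70 lay among them (log2 fold change 0.15, SE 0.09, 95% interval -0.04 to 0.33; adjusted p = 0.343). Scn3b had a log2 fold change of -0.07 (SE 0.06; adjusted p = 0.521), with 3006 to 3336 at P21 and 2808 to 3189 at P70. The median over the 7 members was -0.07, beside -0.01 over all genes.

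**Figure D3:**
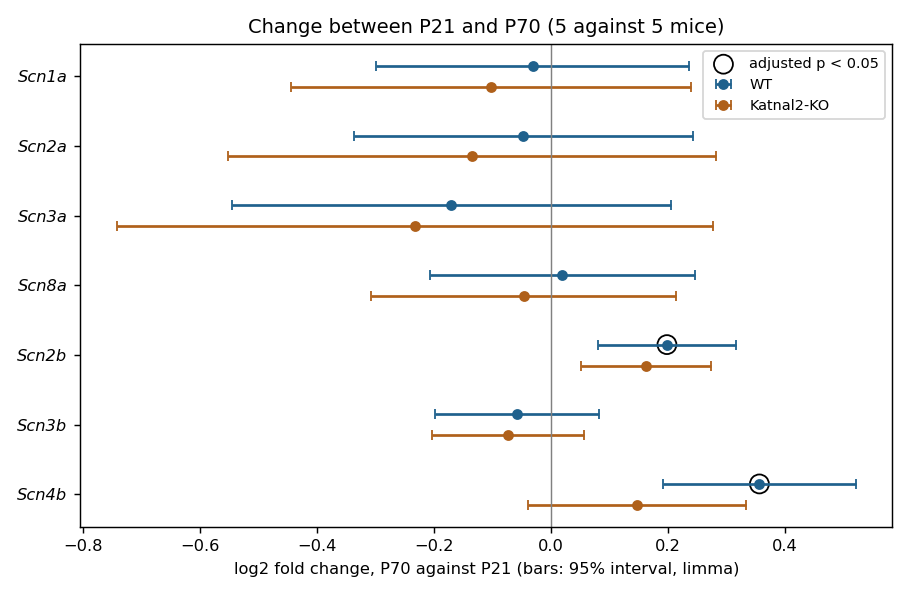
Log2 fold change between P21 and P70 (horizontal axis, with 95% limma intervals, 5 against 5 mice) of each member in WT and Katnal2-KO mice, with rings for adjusted p under 0.05. Only Scn2b and Scn4b in WT mice carry rings, and the intervals of the alpha subunits all include 0.

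The log2 fold change of Scn4b was larger in WT than in KO mice, but this difference did not pass its own test. The age by genotype interaction was -0.21 for Scn4b (SE 0.12, 95% interval -0.45 to 0.03; unadjusted p = 0.0848, limma adjusted p = 1.00, n = 20 mice). Interactions of the other 6 members ranged from -0.09 to -0.02, and none of the 7 passed the adjusted or the unadjusted test, where 0% and 1.68% of 17637 genes did. Within each mouse, the log2 ratio of Scn4b to Scn3b was 0.78, 0.63, 0.82, 0.46 and 0.82 in WT mice at P21 and 1.12, 0.93, 1.28, 1.01 and 1.25 at P70, without overlap. In KO mice this ratio ran from 0.72 to 1.04 at P21 and from 0.74 to 1.35 at P70, with overlap. The log2 ratio of Scn2b to Scn3b was 1.20 ± 0.12 and 1.46 ± 0.09 in WT mice, with overlap, and 1.25 ± 0.06 and 1.48 ± 0.09 in KO mice, without. These ratios do not depend on how the mice were scaled, and they were not tested.

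None of the alpha subunit genes passed the test between the ages in either genotype. In WT mice the log2 fold changes were -0.03 for Scn1a (95% interval -0.30 to 0.24), -0.05 for Scn2a (-0.34 to 0.24), -0.17 for Scn3a (-0.54 to 0.20) and 0.02 for Scn8a (-0.21 to 0.25). In KO mice they were -0.10, -0.13, -0.23 and -0.05, with the widest interval for Scn3a (-0.74 to 0.28). The signs of Scn1a, Scn2a and Scn3a in both genotypes, and of Scn8a in KO mice, turned when replicate 5 of the P70 mice was left out. Scn8a in WT mice was above 0 with and without that mouse, and its sign turned in 4 of the 10 fits that left out a mouse, each of them another one. Without replicate 5 the log2 fold changes were 0.10 for Scn1a, 0.10 for Scn2a, 0.01 for Scn3a and 0.08 for Scn8a in WT mice, and 0.06, 0.07, 0.02 and 0.04 in KO mice, with adjusted p of at least 0.321.

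The values of the P70 mice show this. Scn2a had 9418, 10698, 10952, 11285 and 6456 normalized counts in WT mice and 10998, 10326, 9406, 9774 and 4916 in KO mice. Scn3a had 1392, 1583, 1582, 1591 and 811 in WT mice and 1790, 1396, 1325, 1419 and 608 in KO mice. In each of these groups the last mouse, replicate 5, was well below the lowest of the others. Relative to the mean of its group on the log2 scale, the KO replicate 5 mouse was at 0.493 of the level for Scn3a, 0.562 for Scn2a, 0.641 for Scn1a and 0.778 for Scn8a. The WT replicate 5 mouse was at 0.601, 0.674, 0.691 and 0.838 for the same genes. The beta subunits of these mice lay between 0.938 and 1.11 of their group. At P21 replicate 3 of both genotypes was the lowest mouse of its group for Scn1a, Scn2a and Scn8a. Its Scn8a value was 8520 in the WT mouse, against 10954 to 12111 in the other WT mice, and 8744 in the KO mouse, against 10817 to 12488.

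The 4 alpha subunits deviated together from mouse to mouse. Deviations of log2 values from the group mean had a Pearson r of 0.86 to 0.98 between pairs of alpha subunits (n = 20 mice), and of 0.85 to 0.93 without the P70 replicate 5 mice (n = 18 mice). Pairs of beta subunits had an r of -0.36 to 0.06, and pairs of an alpha and a beta subunit one of -0.49 to 0.47. The points of each pair share the library, its depth and its scaling, so that these are descriptions with no p. The alpha subunit transcripts are long, with 11146 to 15766 bases of merged exon, where the upper quartile of all genes is 6375 bases and the beta subunits have 4656 to 5461. For each mouse, a slope was taken over 17623 genes, of the deviation from the group mean on the log2 of exon length. This slope was -0.13 and -0.11 per doubling of length in the KO and WT replicate 5 mice at P70, -0.05 and -0.06 in the KO and WT replicate 3 mice at P21, and between -0.01 and 0.05 in the other 16 mice. The deviations of the alpha subunits had an r of 0.90 to 0.98 with it (0.89 to 0.96 without the P70 replicate 5 mice), and those of the beta subunits one of -0.40 to 0.43. A slope on GC content moved in the opposite direction and was highest in the same replicate 5 mice (0.43 and 0.33 per 10 percentage points). The part of length or base composition in the alpha subunit values was not tested beyond the correction for both, under which none of the 4 passed at either age or in either genotype.

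**Figure D4:**
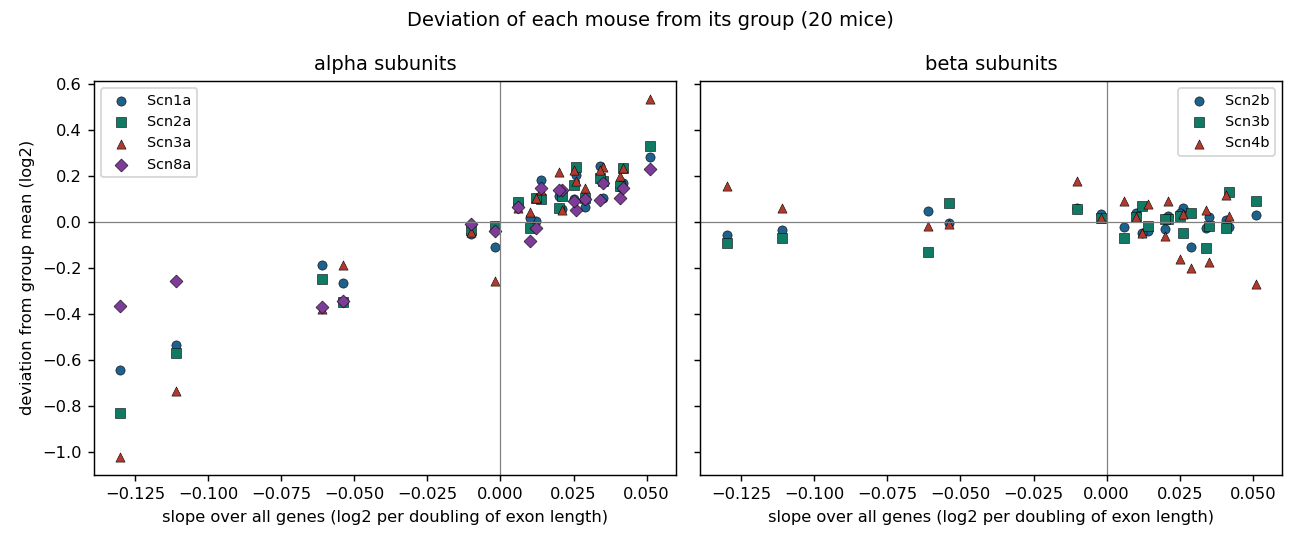
Deviation of each of the 20 mice from its group mean (vertical axis, log2) for the alpha subunits (left) and the beta subunits (right), against the slope over all genes of that mouse's deviations on exon length (horizontal axis, log2 per doubling). The alpha subunits fall from right to left along the slope, down to -1.02 for Scn3a, whereas the beta subunits stay around 0.

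Katnal2-KO and WT mice were then compared within each age. None of the 7 members passed the test at P21 or at P70, and neither did any other gene of the 17610 and 17613 tested (0% called by limma). At an unadjusted p under 0.05 there were 429 genes (2.44%) at P21 and 199 (1.13%) at P70, and none was a member. Scn4b had the largest log2 difference at P21. The KO mice had 5814.7 ± 415 normalized counts and the WT mice 5254.8 ± 525 (SD, n = 5 mice each), and 2 KO mice were above all WT mice while the other 3 lay among them. The log2 difference was 0.15 (SE 0.07, 95% interval 0.00 to 0.30; unadjusted p = 0.0555, limma adjusted p = 1.00; exact permutation p = 0.103, and 0.0476 without KO replicate 4 or without WT replicate 5). The differences of the other members at P21 were between -0.07 (Scn3a) and 0.01 (Scn8a, Scn2b and Scn1a), with exact permutation p from 0.516 to 0.944.

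The precision differed between the subunits. For Scn2b at P21, the 95% interval of the difference between KO and WT mice ran from -5.11% to 7.53%, and for Scn3b from -8.57% to 5.21%. For the alpha subunits it ran from -11.3% to 13.8% (Scn1a), -15.7% to 12% (Scn2a), -14.3% to 19% (Scn8a) and -19.9% to 13.5% (Scn3a). These limits give the range of differences compatible with the values of 5 mice per group, and the smallest detectable difference was not computed. They come from fits without the replicate number as a block. A shift shared by both genotypes, such as that of replicate 5 at P70, therefore counts as spread in them. At P70 the intervals were wider for every member other than Scn8a, whose interval was about as wide (-18.7% to 14.5%). The widest was that of Scn3a (-39.6% to 38.1%), and the narrowest that of Scn2b (-9.33% to 6.98%).

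At P70 all 7 differences between KO and WT mice were below 0, from -0.02 (Scn2b) to -0.13 (Scn2a and Scn3a), where 47.8% of all genes were above 0 and the median was 0.00. The sign of the alpha subunits depended on the replicate 5 mice. Without the KO mouse of replicate 5, the differences were 0.10 for Scn1a, 0.08 for Scn2a, 0.12 for Scn3a and 0.04 for Scn8a. Without the WT mouse they were -0.20, -0.27, -0.31 and -0.12, and without both, a setting chosen after seeing the data, they were -0.04, -0.06, -0.06 and -0.02. No value among these passed the test. Scn2b (8356.1 ± 298 in KO and 8482 ± 215 in WT mice) and Scn3b (2997 ± 164 and 3089.6 ± 202) differed by less than the spread between mice, with exact permutation p of 0.421 and 0.484. Scn4b had 6461.7 ± 722 and 6711.9 ± 411 (exact permutation p = 0.556), and its log2 difference of -0.06 at P70 was opposite in sign to that at P21.

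**Figure D5:**
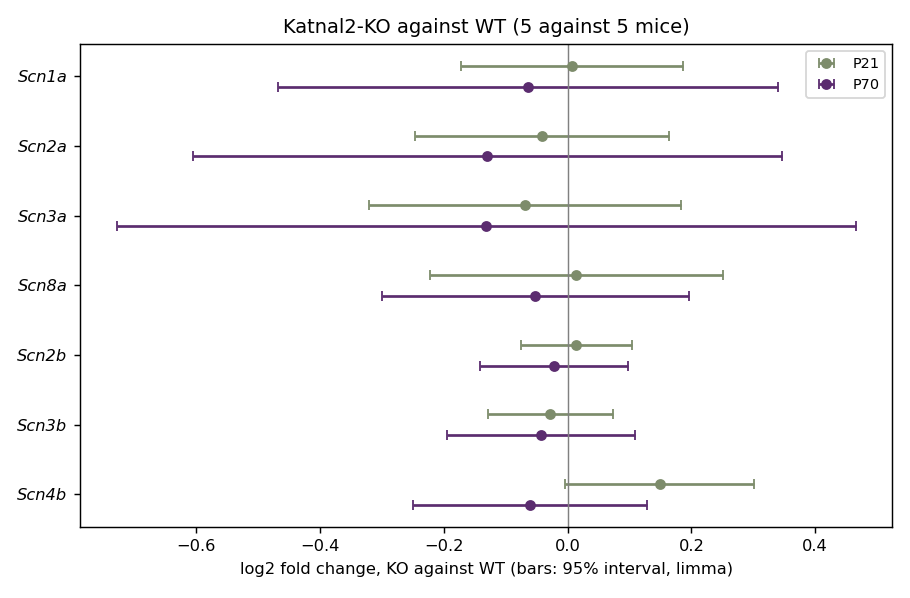
Log2 fold change of Katnal2-KO against WT mice (horizontal axis, with 95% limma intervals, 5 against 5 mice) of each member at P21 and P70. Every interval includes 0, and those of Scn1a, Scn2a and Scn3a are wider at P70 than at P21.

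Further sodium channel genes were covered by a list. Scn4a, the muscle channel, was not analysed here, and values are given for 4 others. Scn11a, known from sensory neurons, was the only one of the 4 to pass a test. It fell between the ages in WT mice, from 32.793 ± 9.65 to 9.3897 ± 3.72 normalized counts (log2 fold change -1.73, SE 0.29; limma adjusted p = 0.00259), and in KO mice, from 25.791 ± 5.96 to 9.5331 ± 3.88 (-1.38, SE 0.29; adjusted p = 0.0111). Its values at P70 were near the minimum mean of 10 used for testing, and it was not tested between genotypes at P70. Scn9a had group means of 159.4 to 180.69 normalized counts, Scn7a 103.73 to 116.55 and Scn10a 14.978 to 17.11. None of these 3 passed, with adjusted p of at least 0.743 between the ages. None of the 4 passed between genotypes or in the interaction.

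Genes that act with the channels were examined through lists of their roles. Of the 4 fibroblast growth factor homologous factors, which bind the alpha subunit, none passed between the ages (Fgf13 -0.19, adjusted p = 0.0684; Fgf12 -0.18, adjusted p = 0.267 in WT mice). Fgf13 passed as lower without replicate 5 of the P70 WT mice (-0.15, limma adjusted p = 0.0309). In WT mice it also passed with the trend on length and GC content removed (-0.16, limma adjusted p = 0.0323). With quantile normalization it passed there too (-0.21, limma adjusted p = 0.0386). Where 4.7% of all genes tested fell and 4.62% rose in WT mice, 2 of 13 genes of the initial segment and node scaffold fell and none rose. These were Nfasc, an adhesion molecule of both sites (from 17875 ± 3100 to 11798 ± 1290 normalized counts, log2 fold change -0.59, SE 0.12; adjusted p = 0.0076), and Vcan, a proteoglycan of the extracellular matrix (from 1248.1 ± 151 to 743.87 ± 138, -0.76, SE 0.13; adjusted p = 0.00258). In KO mice the same genes fell (-0.70 and -0.95; adjusted p = 0.000157 and 0.00366), together with Tnr, a matrix glycoprotein named after its values were seen (-0.56; adjusted p = 0.0479). Of all genes tested in KO mice, 4.53% fell and 3.78% rose. The median over the list was -0.09 in WT and -0.11 in KO mice, beside 0.00 and -0.01 over all genes. Nfasc, Vcan and Tnr are also made by cells of the oligodendrocyte lineage. In the same comparisons all 6 oligodendrocyte markers fell (median -1.12 in WT and -1.28 in KO mice), as did 3 of 4 precursor markers in WT and 2 of 4 in KO mice, and the part of these cells in the scaffold values was not tested.

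Among 9 other regulators, such as the calmodulin genes and the ubiquitin ligase gene Nedd4l, none passed between the ages, with the largest log2 fold changes in WT mice for Nedd4l (0.15; adjusted p = 0.433) and S100a10 (0.14; adjusted p = 0.523). None of the 4 measured genes of the sodium leak channel complex passed (Unc79 0.23, adjusted p = 0.216; Unc80 0.21, adjusted p = 0.456 in WT mice). Both Unc79 and Unc80 passed as higher without replicate 5 of the P70 mice, in WT mice (0.32 and 0.38; adjusted p = 0.0184 and 0.00887) and in KO mice (0.28 and 0.41; adjusted p = 0.0421 and 0.0491). Of 4 sodium pump genes considered, none passed in either genotype (Atp1b3 0.20, adjusted p = 0.0906 in WT mice). Without replicate 5 of the P70 mice, Atp1b3 passed as higher in WT and in KO mice (adjusted p = 0.0266 and 0.0113). Atp1b3 also passed in both genotypes without replicate 3 at P21. In WT mice it passed with the trend on length and GC content removed as well (0.22, limma adjusted p = 0.0234). No gene of these lists passed between genotypes at either age.

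Markers of brain cell types moved between the ages beside the sodium channel genes. Of all genes tested, 4.62% rose and 4.7% fell in WT mice, and 3.78% rose and 4.53% fell in KO mice. All 6 oligodendrocyte markers fell, with a summed level of 379600 to 428200 normalized counts in WT mice at P21 and 160200 to 183900 at P70, and all 4 haemoglobin genes of blood fell (24150 to 60720 against 6915 to 9849). Of 6 general neuronal markers, Snap25 rose (log2 fold change 0.25) and Stmn2 fell (-0.35) in WT mice, and the other 4 did not pass, with summed levels of 152800 to 158100 at P21 and 151100 to 168200 at P70. For the cell types in which Scn4b is known to be abundant, 1 of 5 striatal markers (Drd2, 0.40) and 1 of 5 Purkinje cell markers (Itpr1, 0.46) rose in WT mice and none of either list fell. Their summed levels overlapped between the ages (striatal 8323 to 9883 and 9207 to 14010, Purkinje 29300 to 35940 and 32300 to 47230). No marker of these lists was at 0 in any group. Single markers here were named after their values were seen. Inhibitory neuron markers had none called (0 of 5), 3 of 4 oligodendrocyte precursor and 3 of 5 immature neuron markers fell, 2 of 5 choroid plexus markers rose, and none passed among 5 granule cell, 5 astrocyte, 5 microglia and 3 muscle markers in WT mice. In KO mice all 6 oligodendrocyte and 4 haemoglobin genes fell, as did 3 of 5 granule cell, 2 of 4 precursor, 2 of 5 immature neuron and 1 of 5 Purkinje cell markers. Among neuronal markers Snap25 rose and Stmn2 fell there too, and none of the striatal, inhibitory neuron, astrocyte, microglia, choroid plexus or muscle markers passed. The part of cell composition in the levels of Scn2b and Scn4b was not tested.

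Between genotypes no marker passed the test. At P21 the 4 haemoglobin genes were lower in KO mice at an unadjusted p under 0.05 (median log2 difference -0.75), and 1 of 5 immature neuron markers was, with all 5 below 0 (median -0.11). Of the cell types rich in Scn4b, all 5 Purkinje cell markers were above 0 (median 0.10, 1 at an unadjusted p under 0.05), and so were 4 of 5 striatal markers (median 0.05, none at that p). All 5 choroid plexus markers (median 0.30, 2 at that p) and all 6 oligodendrocyte markers (median 0.11, none at that p) were above 0 as well. So were all 5 inhibitory neuron markers and 4 of 5 in each of the granule cell and astrocyte lists, beside 52.5% of all genes. General neuronal (2 of 6) and microglia markers (2 of 5) had fewer. At P70, 1 of 5 Purkinje cell, 1 of 5 striatal, 0 of 5 granule cell and 0 of 6 oligodendrocyte markers were above 0. All 5 inhibitory neuron, 5 microglia and 5 choroid plexus markers were above 0 there, beside 47.8% of all genes. The part of cell composition in the P21 values of Scn4b was not tested.

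The genes whose levels followed each member most closely over the 20 mice were named by Pearson r among 12797 genes with a mean of at least 100. For Scn4b these were Rasd2, a small GTP-binding protein gene known from the striatum (r = 0.896), and Lrrc10b (0.886), and for Scn2b they were Alkbh5, an RNA demethylase gene (0.942), and Dmp1 (0.928). Scn3b had lower values, with Wdpcp at 0.823 and Zfp324 at 0.769. For the alpha subunits the values were higher. They were 0.991 between Scn2a and Zfp871 and 0.988 between Scn2a and Gria2, a glutamate receptor gene, 0.974 between Scn8a and Kcna2, an axonal potassium channel gene, and 0.964 between Scn8a and Map3k9. Scn1a followed Scn2a (0.973) and Gm38393 (0.972), and Scn3a followed Gm16185 (0.98) and Tnks (0.974). Without the P70 replicate 5 mice (n = 18 mice), the same pairs had 0.911 and 0.908 for Scn1a and 0.906 and 0.862 for Scn3a. They had 0.96 and 0.951 for Scn2a and 0.961 and 0.97 for Scn8a. Those of Scn2b were then 0.95 and 0.958, so that the alpha subunits were no longer all higher.

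With the group means removed, the closest genes were Cd4 (0.826) and Rasd2 (0.823) for Scn4b, Plekhf2 (0.807) and Tspan7 (0.772) for Scn2b, and Sox11, a transcription factor gene of immature neurons (0.898), and Wdpcp (0.789) for Scn3b. For the alpha subunits they were Hook3 (0.982) and Unc80 (0.981) for Scn1a, Zfp871 (0.995) and Gria2 (0.993) for Scn2a, Gm16185 (0.981) and Ptprd (0.976) for Scn3a, and Kcna2 (0.984) and Cacna1e (0.979) for Scn8a. The genes were ranked on the same mice that show the length slope, and the values are descriptions.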

How the data were processed

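Poly-A RNA of whole brains was sequenced from 20 male mice, 5 per group. According to the submitters' processing notes, transcripts were quantified with Salmon 1.1.0 on GRCm38, and the authors deposited 1 table of expression values normalized with DESeq2 1.26.0 (R 3.6.2). These deposited values are a normalized signal per gene and not raw counts. Whole reads could not be recovered, since 10.2% to 33.8% of low values per mouse lay within 0.05 of a whole read, so no count model was used and the stated depths are approximate.

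Log2(value + 1) was tested with limma 3.58.1 (R 4.3.3; lmFit, eBayes with intensity trend) for genes whose mean reached 10 in the mice compared, with Benjamini-Hochberg adjustment over all of them and a threshold of 0.05. Folds on this scale understate changes of low genes. Each comparison used its own 10 mice, and the interaction used all 20. Single values of KO against WT were also given an exact two-sided permutation test. Levels were divided by merged exon length (GENCODE M21). Of 19463 genes, 19447 had an annotation. Python 3.11.15, pandas 2.3.3, numpy 2.4.6, scipy 1.17.1 and matplotlib 3.10.9 were used, and the limma step was tested on simulated data.

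The members, the lists and the markers were chosen with earlier results of these data known. Named genes were Katnal2, the members, the further sodium channel genes, in each other list the 2 genes with the largest absolute change in WT mice between the ages, and for each member the 2 genes with the highest r. Alternatives were a pseudocount of 10, no filter on low values, limma without trend, quantile normalization, removal of a spline trend on length and GC content, the replicate number as a block, the longest coding transcript as length, and leaving out each mouse. Leaving out both P70 replicate 5 mice was chosen after seeing the data. Only the promoters of Scn2b and Scn4b were used, chosen for their higher values at P70, and those of the other members are not shown. Some genes of the lists are not reported here, and list counts and named genes were taken without them, with 1 sodium pump gene named.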

Additional observations from a re-analysis of the deposited data

Results flagged for a closer look

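In 52 sets of 5 mice (members, Katnal2 and ratios in each group), the mouse at one end was set against the rest by its gap to the nearest other mouse over the whole range. For sets that are independent, chance gives about 1 in 20 above the limit of 0.71. Here 6 sets were above it. The sets share mice and genes, so this number cannot be judged against that rate.

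Replicate 5 of the P70 mice accounted for 4 of them. Scn2a had 4916 normalized counts in the KO mouse (gap over range 0.738), and Scn3a had 811 in the WT mouse (0.745). The log2 ratio of Scn8a to Scn2a was 0.767 in the KO mouse (0.801) and 0.534 in the WT mouse (0.907). The same 2 mice had the steepest slopes on exon length over all genes, -0.13 and -0.11 per doubling.

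The other 2 were single low values. Scn3b had 2935 in replicate 3 of the WT mice at P21 (0.748), and Scn4b had 5993 in replicate 2 of the WT mice at P70 (0.807).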

How the results depend on the processing

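Between the ages in WT mice, 1643 genes and 2 members passed, against 2690 genes with the trend on length and GC content removed and 1 member with limma without trend, quantile normalization or the replicate block. In KO mice 1467 genes and 0 members passed, against 2660 genes and 1 member with the trend removed and 913 genes with the block. Leaving out 1 mouse gave 912 to 3000 genes and 1 to 2 members in WT mice, and 896 to 3759 genes and 0 to 1 members in KO mice, with the highest gene numbers without replicate 5 at P70 and the lowest without replicate 4 at P21. Between genotypes, 1 gene passed at P70 without both replicate 5 mice (Gm28438, log2 difference 0.87), and 0 to 1 passed at P21 when a mouse was left out (Lenep without KO replicate 4, Spats2l without WT replicate 3). These 3 were named after their values were seen.

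Signs turned only for values that did not pass. At P21, the difference between genotypes was -0.0001 for Scn8a with the trend removed and -0.0006 with quantile normalization. In WT mice between the ages it was -0.0099 and -0.0045 for Scn8a. The interaction was 0.0091 for Scn3a without both replicate 5 mice and 0.0007 for Scn3b with quantile normalization. With the longest coding transcript, the share was 23.26% for Scn1a, 46.39% for Scn2b and 20.55% for Scn3b.

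With 1 mouse left out, differences between genotypes at P21 ran from -0.039 to 0.0737 for Scn1a, -0.1036 to 0.0453 for Scn2a, -0.0782 to 0.1004 for Scn8a and -0.0124 to 0.0298 for Scn2b. Scn4b ran from 0.0993 to 0.1938 there (exact permutation p 0.0476 to 0.206). At P70 they ran from -0.197 to 0.0966 for Scn1a, -0.2715 to 0.0785 for Scn2a, -0.3149 to 0.124 for Scn3a, -0.1154 to 0.0389 for Scn8a, -0.1004 to 0.0065 for Scn4b and -0.2738 to -0.1534 for Katnal2 (exact permutation p 0.0317 to 0.159). Between the ages in WT mice they ran from -0.0923 to 0.102 for Scn1a, -0.1091 to 0.0952 for Scn2a, -0.2642 to 0.0139 for Scn3a, -0.0725 to 0.0832 for Scn8a and -0.1506 to 0.1739 for Scn9a. In KO mice they ran from -0.1733 to 0.0581 for Scn1a, -0.2216 to 0.0731 for Scn2a, -0.3662 to 0.023 for Scn3a, -0.1325 to 0.0446 for Scn8a, -0.0049 to 0.1566 for Nedd4l, -0.0619 to 0.2908 for Scn7a and -0.0565 to 0.2938 for Scn10a. The interaction ran from -0.2042 to 0.0893 for Scn1a, -0.2301 to 0.1199 for Scn2a, -0.246 to 0.1929 for Scn3a, -0.1522 to 0.0264 for Scn8a and -0.0429 to 0.0174 for Scn3b. Apart from fewer mice in each fit, the cause of these shifts was not tested.

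The mice were not treated as pairs, since no label ties equal replicate numbers together and r was not over 0.1 in every pair of any comparison. Deviations of same-numbered mice had an r of -0.009 to 0.26 between genotypes at P21, 0.075 to 0.705 at P70, -0.102 to 0.156 between the ages in WT mice and -0.119 to 0.16 in KO mice, and 5, 7, 4 and 2 of 10 mice correlated best with their own number. With the replicate block, 1265 genes passed between the ages in WT mice and 913 in KO mice, and 0 between genotypes at either age. At an unadjusted limma p under 0.05, the block gave 732 genes between genotypes at P21 and 610 at P70. Without it there were 429 and 199. No sodium channel member passed between genotypes with the block at either age, and the intervals given above are those without it. Between genotypes, Scn4b at P21 and Katnal2 at P70 had log2 differences of 0.15 and -0.21 with the block (limma adjusted p = 1.00 for both). With 5 mice per group and approximate depth, small differences such as those of the alpha subunits could go undetected.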
